A study of Mus musculus with 18 samples.

Results

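E2F factors and the retinoblastoma family were read here from 21 probe sets of 10 genes, E2f1, E2f2, E2f3, E2f4, E2f6, E2f7, E2f8, Rb1, Rbl1 and Rbl2, taken as every probe set that the array annotation assigned to these symbols, out of 45101 probe sets and 18194 named genes. Expression was measured on 18 Affymetrix mouse arrays of total RNA from TKO cells, a mouse line that the labels describe by its dysfunctional telomeres. The groups, with 3 arrays each, were p53ER cells after 4 h in 100 nM 4-hydroxytamoxifen (4-OHT), p53ER cells after 4 h in vehicle, p53ER cells at 0 h, uninfected cells after 4 h in 100 nM 4-OHT, uninfected cells after 4 h in vehicle and uninfected cells at 0 h. p53ER is p53 fused to an estrogen receptor, which 4-OHT makes active, and the study chose 4 h to look for direct targets of p53. The labels name no cells with an empty vector, no promoter for the fusion and no clone number, and they do not say what the name TKO stands for. Nothing in them tells if the 3 arrays of a group came from different cultures, so a p-value here measures the spread between arrays, which may be technical, and 3 arrays against 3 cannot give an exact two-sided permutation p below 0.1.

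E2F proteins bind DNA together with a DP partner and control the genes that carry a cell from G1 into S phase. E2F1, E2F2 and E2F3 mostly activate these genes, E2F4 mostly represses them with the pocket proteins p107 and p130, E2F6 represses through Polycomb proteins without binding pocket proteins, and E2F7 and E2F8 repress without a DP partner. The pocket proteins pRb, p107 and p130 are encoded by Rb1, Rbl1 and Rbl2. Active p53 induces p21, encoded by Cdkn1a, which inhibits cyclin-dependent kinases, leaves pocket proteins unphosphorylated and favours the DREAM complex of E2F4, p130 or p107 and the MuvB proteins on promoters of S phase and mitotic genes.

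Several E2F and pocket protein genes are themselves E2F targets, so the DNA just upstream of their starts is shown for the genes with an E2F core in that window. RefSeq promoter sequences of build GRCm38.p6 listed 8 of the 10 genes, and for 5 of them (E2f2, E2f3, E2f7, Rbl1 and Rbl2) a window lay at the outer start of the gene. The 250 bases before the start were searched on both strands for the E2F cores TTCCCGC or TTGGCGC or TTCGCGC or TTGCCGC and for the cell cycle homology region core TTTGAA, bound by the MuvB protein LIN54. An E2F core was present in 3 of these 5 windows, and in 6.69% of 19953 windows of the same length at the outer start of a gene. G and C made up 79.2% of the E2f7 window, 63.6% of that of Rbl1 and 55.6% of that of E2f3. The 19953 windows were not matched for this. The windows with a match were chr10:110745189-110745438 on the plus strand for E2f7, chr2:157204535-157204784 on the minus strand for Rbl1 and chr13:29986064-29986313 on the minus strand for E2f3. Each is written 5′ to 3′ towards the gene, with capitals for the matched letters on either strand.
E2f7: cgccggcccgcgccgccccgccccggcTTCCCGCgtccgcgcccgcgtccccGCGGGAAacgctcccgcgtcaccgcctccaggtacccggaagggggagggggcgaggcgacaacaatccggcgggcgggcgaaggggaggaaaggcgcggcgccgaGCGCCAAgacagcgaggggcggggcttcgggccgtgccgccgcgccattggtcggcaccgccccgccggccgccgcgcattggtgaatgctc
Rbl1: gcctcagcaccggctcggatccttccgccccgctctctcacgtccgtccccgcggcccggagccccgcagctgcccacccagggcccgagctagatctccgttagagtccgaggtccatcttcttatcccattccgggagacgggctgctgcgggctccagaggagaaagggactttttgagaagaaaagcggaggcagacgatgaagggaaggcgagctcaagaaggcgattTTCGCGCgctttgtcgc
E2f3: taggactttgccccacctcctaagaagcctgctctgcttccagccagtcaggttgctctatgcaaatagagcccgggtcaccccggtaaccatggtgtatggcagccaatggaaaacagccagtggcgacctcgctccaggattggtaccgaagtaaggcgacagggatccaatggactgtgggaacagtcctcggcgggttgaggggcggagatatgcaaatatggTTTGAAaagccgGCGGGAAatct
The E2f7 window held 3 E2F cores, TTCCCGC once on each strand and TTGGCGC on the opposite strand, the nearest to the start lying 92 to 86 bases upstream. In Rbl1 the core TTCGCGC lay 17 to 11 bases upstream, and in E2f3 TTCCCGC lay on the opposite strand 11 to 5 bases upstream, next to a TTTGAA 23 to 18 bases upstream. Rbl2 held TTTGAA on the opposite strand and no E2F core, E2f2 held neither, and TTTGAA occurred in 17.9% of all windows. A match of letters is not a measured binding site, and no binding was measured in these samples.

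Signals are given as log2 of the scaled probe set signal plus an offset of 4.13, a scale on which a signal of 0 reads 2.05. Each probe set has its own brightness, so levels are compared only between arrays of the same probe set. Of the 21 probe sets, 15 were in the upper 60% of the array by mean signal. The dim ones were 1447840_x_at of E2f1, 1455790_at of E2f2, 1444319_at of E2f8, 1444400_at of Rb1, and 1432604_at and 1454293_at of Rbl1, and all 21 were kept in every test. Across the 18 arrays the brightest probe sets of E2f4 and E2f3 varied least, with SDs of 0.22 and 0.22, and that of Rb1 varied most, with an SD of 0.81 and a range from 3.86 to 7.11. Different probe sets of the same gene followed each other weakly over the 18 arrays: Pearson r was highest for E2f8, at 0.47, and lowest for Rb1, at -0.44, where the second probe set was near the floor.

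The arrays differed in ways that touch these genes. Before scaling, the 2% trimmed mean ran from 47.5 to 148. On the first principal component 3 arrays lay apart, p53ER vehicle replicate 1, p53ER 0 h replicate 3 and uninfected 0 h replicate 2. Several values are also given without them. Uninfected 0 h replicate 3, at 20.1 there, lay between these 3 (54.8 to 123) and the rest (-11.8 or lower) and was kept. The second component separated replicate 3 of every group. Leaving out the 3 arrays leaves replicate numbers unequal between the groups. The activity of the fusion was read from Mdm2, a p53 target: its brightest probe set averaged 10.5 ± 0.64 in p53ER cells with 4-OHT and 7.60 ± 1.02 with vehicle (SD, n = 3 each), a log2 change of +2.92 (limma adjusted p = 0.0187, but 0.134 without the 3 arrays, 0.0999 without p53ER 4-OHT replicate 3 and 0.125 without p53ER vehicle replicate 2), against -0.27 in uninfected cells. Cdkn1a changed by +2.19 (SE 0.49) without passing the threshold of an adjusted p under 0.05 (limma adjusted p = 0.718), although it passed without p53ER vehicle replicate 3 (0.0223) and without replicate 3 of every group (0.00974). All 8 mesenchymal markers were in the upper 60% of the array, at mean log2 signals of 7.68 to 13.8. So were 4 of 5 epithelial, 2 of 4 blood and 2 of 3 endothelial markers. The highest of these were Epcam at 6.82, Csf1r at 6.33 and Kdr at 5.90. Outside it were the blood markers Ptprc and Itgam, the epithelial marker Cdh1 and the endothelial marker Pecam1, at 3.17, 3.01, 2.95 and 2.96. In bulk RNA, fewer cells in a given phase and less RNA per cell cannot be told apart.

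The main comparison asked whether 4 h of active p53ER changed the RNA of these genes. None of the 21 probe sets passed in p53ER cells with 4-OHT against vehicle, where 0.00887% of all probe sets passed (limma, 4 probe sets, all higher). At an unadjusted p under 0.05 the count was also 0 of 21, beside 4.1% of all probe sets. The 95% confidence intervals reached 0.38 to 1.27 to either side of the log2 change, so changes of that size are not excluded for single probe sets. Of the 21 changes 15 were negative, with a median of -0.17 beside +0.03 over all probe sets.

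Among the activators, E2f1 (1431875_a_at) had log2 signals of 8.21, 7.60 and 7.81 in p53ER cells with 4-OHT, against 7.76, 7.40 and 7.90 with vehicle, and 7.96, 7.85 and 8.02 at 0 h. The 4-OHT arrays lay within and around the others, and the log2 change against vehicle was +0.19 (95% CI -0.29 to 0.67). The same E2f1 probe set read 7.86, 7.92 and 8.49 in uninfected cells with 4-OHT, against 7.76, 8.18 and 8.43 with vehicle, a change of -0.03 (95% CI -0.51 to 0.45). The second E2f1 probe set, 1417878_at, changed by +0.19 in p53ER cells (95% CI -0.40 to 0.78). E2f2, an activator that overlaps with E2f1 in proliferating cells, was the most scattered: its brighter probe set read 3.32, 5.64 and 4.36 in p53ER cells with 4-OHT, against 5.08, 5.31 and 4.74 with vehicle. The p53ER 4-OHT arrays of E2f2 spanned the vehicle arrays on both sides, and the change of -0.60 had an interval from -1.73 to 0.52. E2f3, which is made in a full-length and a shorter form, gave 6.90, 7.07 and 7.26 in p53ER cells with 4-OHT, against 7.20, 6.64 and 7.46 with vehicle (1434564_at), a change of -0.03 (95% CI -0.47 to 0.41). The less bright E2f3 probe set, 1427462_at, changed by -0.51 (95% CI -1.56 to 0.54).

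Among the repressors, E2f4 (1451480_at), the main E2F of resting cells, read 7.50, 7.58 and 7.20 in p53ER cells with 4-OHT, against 7.49, 7.32 and 7.78 with vehicle. These arrays overlapped, and its interval for a change of -0.11 was among the narrowest (95% CI -0.48 to 0.27). E2f6 (1448835_at) read 6.79, 6.97 and 6.09 with 4-OHT, against 7.21, 6.70 and 6.54 with vehicle, a change of -0.20 (95% CI -0.87 to 0.47). The highest vehicle array was one that lay apart, and without the 3 such arrays the change of E2f6 was 0.00 (SE 0.31). That fit set all 3 replicates with 4-OHT against vehicle replicates 2 and 3. In both of these groups the lowest E2f6 array was replicate 3, a pattern described further below. Without replicate 3 of every group the change was -0.08. The less bright E2f6 probe set, 1437914_at, changed by -0.27 (95% CI -0.96 to 0.43).

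The atypical repressors were read mainly by 1 probe set each. E2f7 (1437187_at), which with E2f8 damps E2F1-driven transcription, read 7.08, 7.08 and 6.72 in p53ER cells with 4-OHT, against 7.45, 7.08 and 6.91 with vehicle, and 7.29, 7.47 and 7.15 at 0 h. All 3 E2f7 arrays with 4-OHT lay below all 3 at 0 h, as 5.09% of all probe sets did, but overlapped those with vehicle. Its change was -0.19 against vehicle (95% CI -0.57 to 0.20) and -0.34 against 0 h (95% CI -0.73 to 0.04), 2 comparisons that share the 4-OHT arrays; without the 3 arrays that lay apart these were -0.04 (SE 0.18) and -0.42 (SE 0.18). E2f8 (1436186_at) read 6.13, 5.65 and 6.06 in p53ER cells with 4-OHT, against 6.96, 5.72 and 6.26 with vehicle, and 6.63, 6.83 and 5.84 at 0 h. The highest vehicle array and the lowest 0 h array of E2f8 were 2 of the 3 arrays that lay apart. Its change against vehicle was -0.36 (SE 0.31) with all arrays and -0.04 (SE 0.27) without those 3, while against 0 h it was -0.48 (95% CI -1.12 to 0.16) with all arrays and -0.78 (SE 0.27) without them.

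Of the pocket protein genes, Rb1 had the highest change of the 21 probe sets. Rb1 (1417850_at), whose product holds E2F1 to E2F3 silent until it is phosphorylated, read 6.05, 6.04 and 7.11 in p53ER cells with 4-OHT, against 4.34, 5.97 and 5.70 with vehicle, and 5.82, 5.85 and 4.91 at 0 h. All 3 Rb1 arrays with 4-OHT lay above all 6 other p53ER arrays, while 5.01% of all probe sets lay above vehicle and 4.53% above 0 h in this way. The change of +1.06 against vehicle, 2.09-fold, had an interval from -0.02 to 2.15 on the log2 scale. The lowest vehicle array and the lowest 0 h array of Rb1 were again arrays that lay apart, and without the 3 such arrays the change was +0.56 (SE 0.46). In uninfected cells Rb1 averaged 5.59 ± 0.47 with 4-OHT and 5.91 ± 0.35 with vehicle (SD, n = 3 each), a change of -0.32 (95% CI -1.41 to 0.76). The second Rb1 probe set stayed near the floor and read lower in all 3 p53ER arrays with 4-OHT than with vehicle, as 3.4% of all probe sets did, with a change of -0.36 (95% CI -1.02 to 0.29), or -0.22 without the 3 arrays.

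Rbl1 (1424156_at), which encodes p107, read 6.67, 6.83 and 6.24 in p53ER cells with 4-OHT, against 6.05, 6.96 and 6.26 with vehicle, a change of +0.15 (95% CI -0.45 to 0.76). Its other probe sets changed by -0.43, +0.70 and -0.40, none at an unadjusted p under 0.05. Without the 3 arrays that lay apart the change of 1424156_at turned to -0.03 (SE 0.27), and those of the others were -0.16, +0.10 and -0.16. Rbl2, which encodes p130, the pocket protein of resting cells, read 5.43, 6.07 and 6.07 in p53ER cells with 4-OHT, against 5.88, 5.97 and 5.73 with vehicle (1425981_a_at). The interval for its change ran from -0.52 to 0.51, and that of the other probe set, 1418146_a_at, with a change of +0.01, from -0.59 to 0.61.

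**Figure D1:**
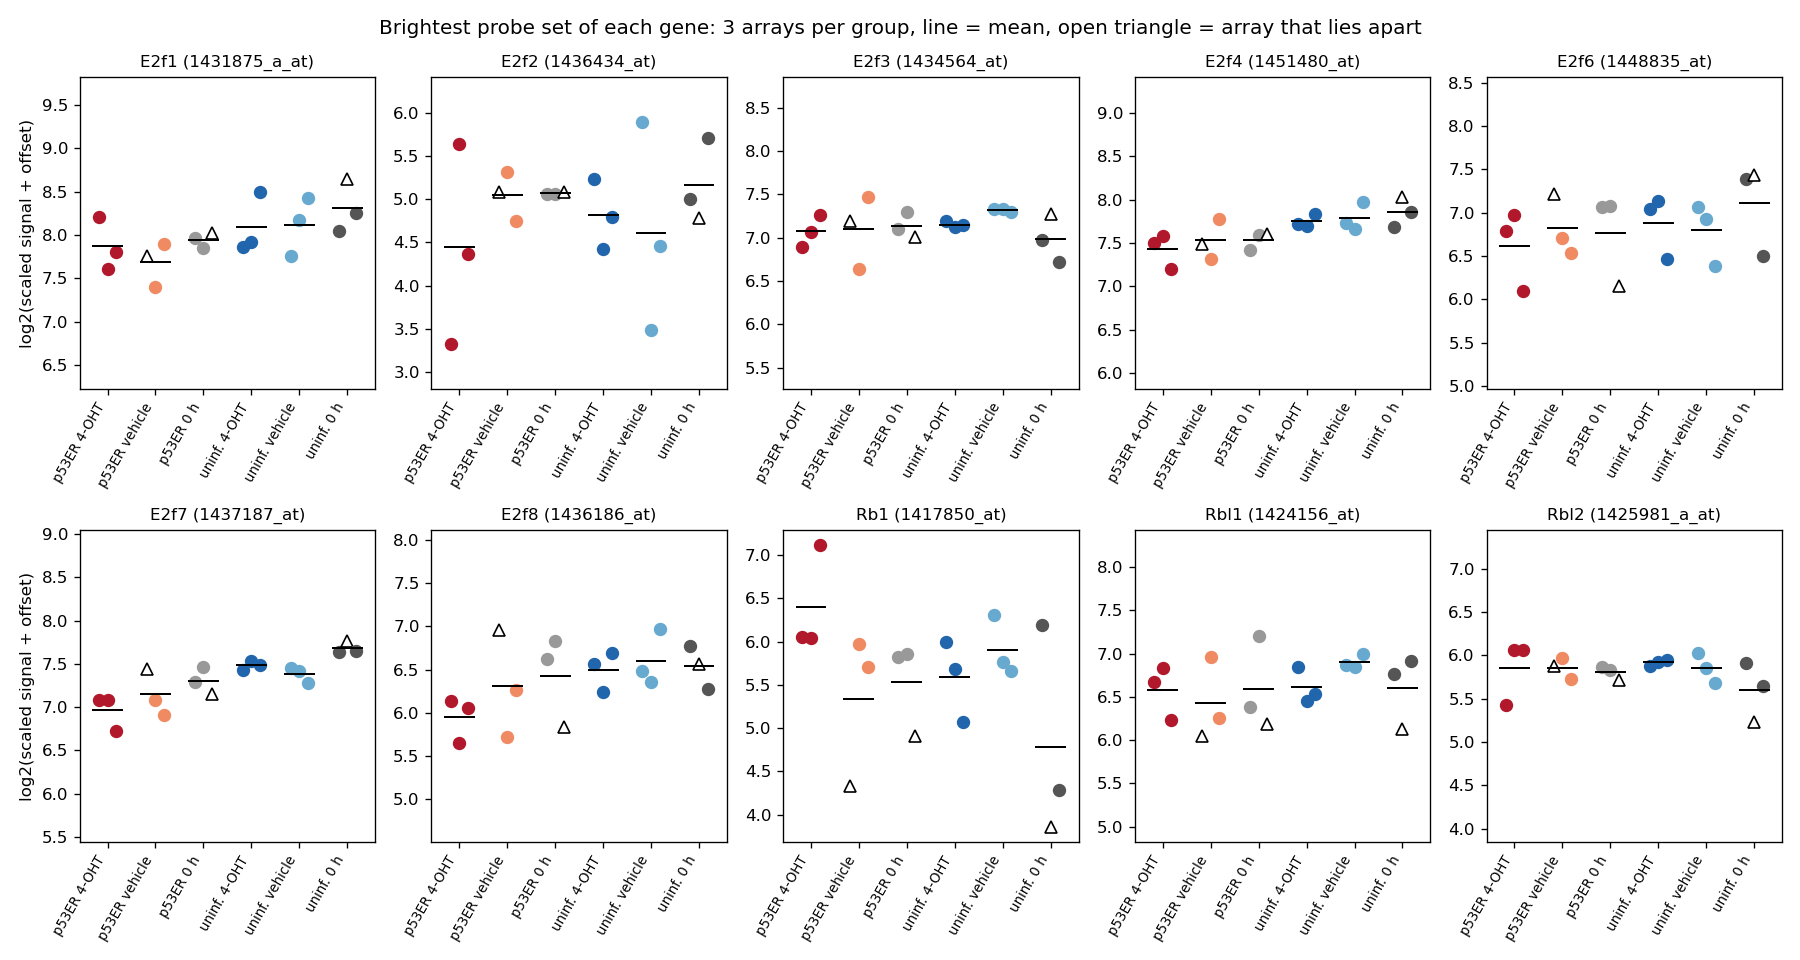
Log2 signal (vertical axis) of the brightest probe set of each gene in the 6 groups (horizontal axis), with 1 point per array, a line at the group mean and open triangles for the 3 arrays that lay apart; each panel spans the same number of log2 units. Rb1 reached 7.11 in p53ER cells with 4-OHT and its lowest array, at 3.86, was a triangle, while E2f7 was highest in uninfected cells at 0 h.

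In uninfected cells, which lack the fusion, 0 of 21 probe sets passed with 4-OHT against vehicle, where 0% of all probe sets passed (limma), and 0 of 21 had an unadjusted p under 0.05, beside 2.16% of all. The difference between the 4-OHT effects in the 2 kinds of cells was tested directly. It passed for 0 of 21 probe sets, beside 0.00222% of all (limma, 1 probe set), and 0 of 21 had an unadjusted p under 0.05, beside 2.76%. For Rb1 the difference was +1.39 (95% CI -0.15 to 2.92) with all arrays and +0.89 (SE 0.61) without the 3 arrays that lay apart. For E2f7 it was -0.29 (95% CI -0.83 to 0.26), and for E2f8 -0.26 (95% CI -1.16 to 0.65). Without the 3 arrays these were -0.14 (SE 0.24) for E2f7 and +0.06 (SE 0.36) for E2f8, which turned its direction.

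**Figure D2:**
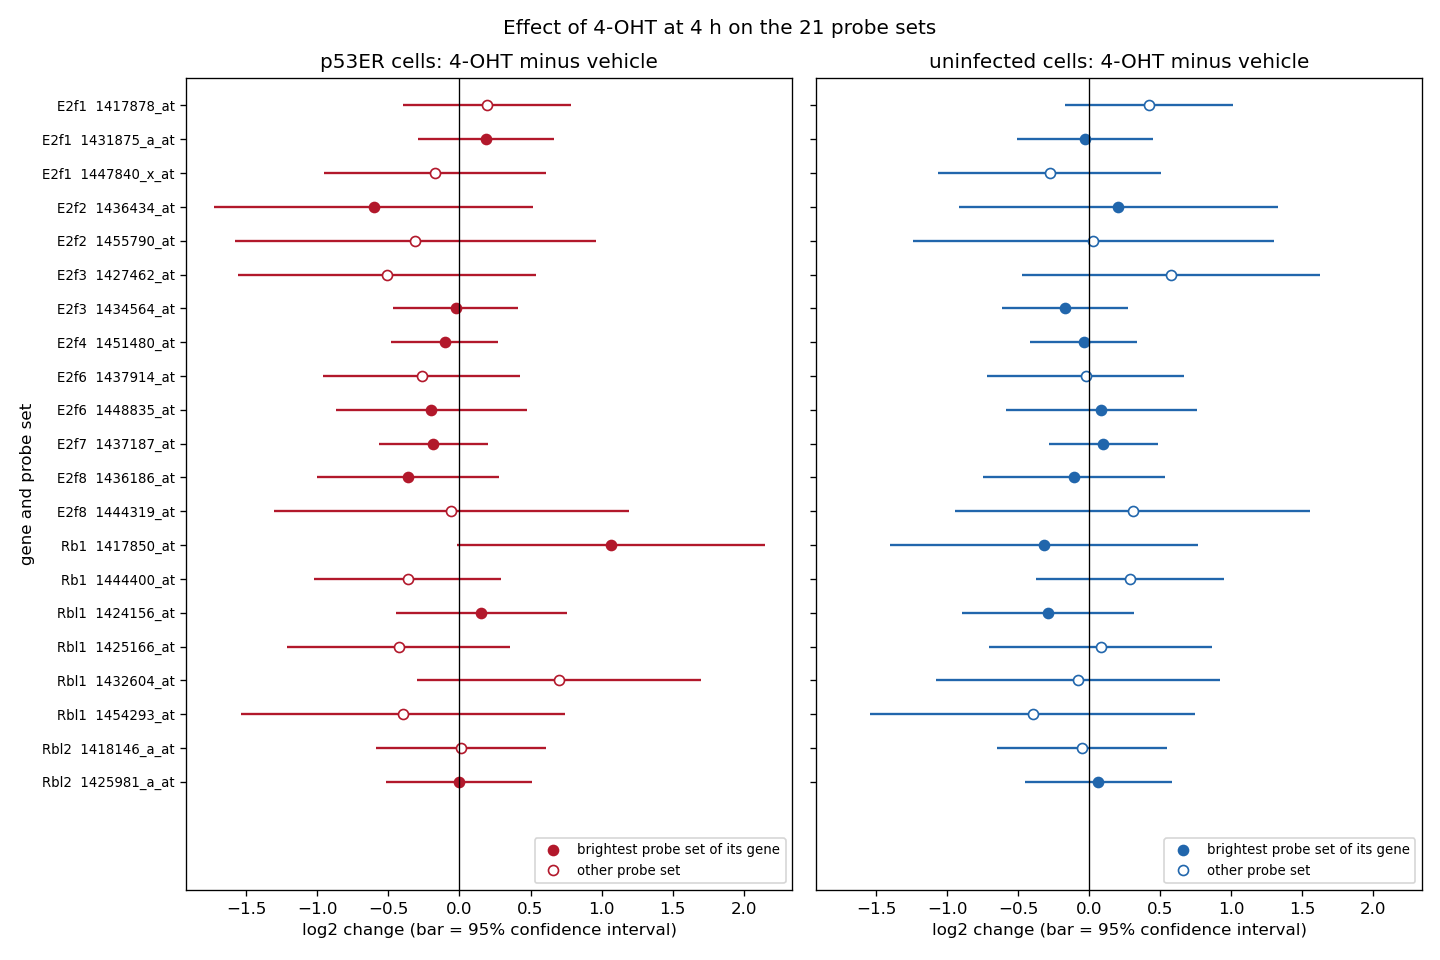
Log2 change with 4-OHT against vehicle at 4 h (horizontal axis) for the 21 probe sets (vertical axis), in p53ER cells on the left and uninfected cells on the right, with 95% confidence intervals as bars and filled points for the brightest probe set of each gene. Every interval holds 0, and that of Rb1 1417850_at in p53ER cells, from -0.02 to 2.15, comes nearest to leaving it out.

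The cells with the fusion were also set against the cells without it under the same treatment. With 4-OHT in both, 0 of 21 probe sets passed (0.0177% of all, limma), and 2 of 21 had an unadjusted p under 0.05, both lower in p53ER cells, beside 3.77% of all probe sets and 1.19% of all in that direction. E2f7 read 7.08, 7.08 and 6.72 in p53ER cells with 4-OHT, against 7.42, 7.54 and 7.49 in uninfected cells with 4-OHT. The 2 sets of arrays did not overlap, the difference was -0.52 (95% CI -0.90 to -0.14), 0.697 of the uninfected level, and limma's adjusted p was 1.00. Without replicate 3 of every group the E2f7 difference was -0.40 (limma unadjusted p = 0.0686). For Rbl1 the probe set 1425166_at read 4.59, 4.02 and 3.66 in p53ER cells with 4-OHT, against 4.90, 5.15 and 5.60 in uninfected cells with 4-OHT. These did not overlap either, and the difference was -1.13 (95% CI -1.91 to -0.34), but the brighter Rbl1 probe set differed by -0.03 (95% CI -0.63 to 0.57). Without replicate 3 of every group 1425166_at differed by -0.72 (limma unadjusted p = 0.140) and the brighter probe set by +0.10.

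Lower arrays without overlap were also seen for E2f4, E2f8 and the dim Rb1 probe set, which makes 5 of 21 probe sets lower without overlap beside 4.14% of all probe sets, and 1, Rb1 1417850_at, was higher without overlap beside 6.02%. E2f4 read 7.50, 7.58 and 7.20 in p53ER cells with 4-OHT, against 7.72, 7.70 and 7.83 in uninfected cells with 4-OHT, a difference of -0.32 (95% CI -0.70 to 0.05). E2f8 read 6.13, 5.65 and 6.06, against 6.57, 6.24 and 6.69 in uninfected cells, a difference of -0.55 (95% CI -1.19 to 0.09). Rb1 averaged 6.40 ± 0.62, against 5.59 ± 0.47 in uninfected cells (SD, n = 3 each), a difference of +0.82 (95% CI -0.27 to 1.90). The highest uninfected Rb1 array lay just below the lower p53ER arrays. Without replicate 3 of every group the differences were -0.17 for E2f4, -0.51 for E2f8 and +0.20 for Rb1.

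Without 4-OHT, the mean of vehicle and 0 h in p53ER cells was set against the same mean in uninfected cells. The comparison with 4-OHT does not use these arrays. Mdm2 and Cdkn1a, read to check the fusion, differed here by +0.30 and +0.70, with 0 at an unadjusted p under 0.05 (limma). Whether the fusion was active without 4-OHT was not tested. Again 0 of 21 probe sets passed (0.00222% of all, limma), and 3 of 21 had an unadjusted p under 0.05, all lower in p53ER cells, beside 3.96% of all and 2.17% in that direction. These were E2f1 1431875_a_at at -0.40 (95% CI -0.74 to -0.06), E2f4 at -0.29 (95% CI -0.56 to -0.02) and E2f7 at -0.31 (95% CI -0.58 to -0.04). E2f7 averaged 7.15 ± 0.27 with vehicle and 7.30 ± 0.16 at 0 h in p53ER cells, against 7.38 ± 0.09 with vehicle and 7.68 ± 0.07 at 0 h in uninfected cells (SD, n = 3 each). From lowest to highest its 6 group means ran from p53ER with 4-OHT, vehicle and 0 h to uninfected with vehicle, 4-OHT and 0 h. Neighbours in this order overlapped in their arrays except uninfected 0 h, whose 3 arrays of 7.63, 7.76 and 7.64 lay above all others. Without the 3 arrays that lay apart, the untreated difference was -0.32 for E2f7 (SE 0.13), -0.36 for E2f1 (SE 0.18) and -0.25 for E2f4 (SE 0.14). E2f1 averaged 7.69 ± 0.26 with vehicle and 7.94 ± 0.09 at 0 h in p53ER cells, against 8.12 ± 0.34 with vehicle and 8.32 ± 0.30 at 0 h in uninfected cells (SD, n = 3 each), but its second probe set differed by +0.10 (95% CI -0.32 to 0.52).

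Time in culture was read from 4 h against 0 h. For p53ER cells given 4-OHT this step holds both time and 4-OHT, which cannot be told apart in it. In p53ER cells with 4-OHT 0 of 21 probe sets passed against 0 h (0.0155% of all, limma), and the dim Rb1 probe set alone had an unadjusted p under 0.05 (1 of 21, beside 4.16% of all). With vehicle 0 of 21 passed (0% of all, limma), and 0 had an unadjusted p under 0.05, beside 3.84%. In uninfected cells, with both 4 h groups together, 0 of 21 passed (0.00443% of all, limma), and 1 had an unadjusted p under 0.05, beside 8.42%. This was Rb1 1417850_at, which averaged 5.59 ± 0.47 with 4-OHT and 5.91 ± 0.35 with vehicle, against 4.78 ± 1.24 at 0 h (SD, n = 3 each). The 0 h arrays of Rb1 read 6.20, 3.86 and 4.28, so 1 of them lay among the 4 h arrays and 2 far below. The difference of +0.97 (95% CI 0.03 to 1.90) fell short after adjustment (limma adjusted p = 0.589). It was +0.51 (SE 0.41) without the array that lay apart, replicate 2, which read lowest. Replicate 3, the other low 0 h array at 4.28, stayed in that fit. On the first principal component it was the kept array nearest to those apart. All 6 uninfected arrays of E2f7 at 4 h lay below those at 0 h, as did 3.51% of all probe sets, with a difference of -0.25 (95% CI -0.58 to 0.08), beside a median of -0.11 over all probe sets in this comparison.

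The gene pattern most like each of 4 members was found by Pearson correlation over the 18 arrays among 10915 other genes. For Rb1 these were Mybl1 (r = 0.93), Camsap2 (0.90) and Chmp1b (0.89). For E2f7 they were Dsn1 (0.87), Fam98a (0.87) and Tcf19 (0.85), for E2f1 Tmem231 (0.86), Clpb (0.86) and Tubg1 (0.85), and for E2f8 Ube2e3 (0.77), Phf2 (0.77) and Fbrs (0.76). Arrays share group, replicate number and the deviation of whole arrays, and after removal of the group means the values for Rb1 were 0.91, 0.88 and 0.88, and for E2f7 0.77, 0.66 and 0.73.

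Of the genes around the family, the S phase genes that E2F activates were read first. The activity of E2F itself was not measured. In p53ER cells with 4-OHT against vehicle 0 of 32 measured genes passed (0.011% of 18194 genes, limma). An unadjusted p under 0.05 was found for 1 of 32, lower, beside 1.35% of all genes in that direction. Of the 32 changes 26 were negative with a median of -0.16, beside 51.3% positive changes and a median of +0.01 over all genes. Cdc6, which loads the replicative helicase, had the lowest value at -0.67 (SE 0.27). It averaged 6.22 ± 0.28 in p53ER cells with 4-OHT and 6.89 ± 0.25 with vehicle, against 7.20 ± 0.59 in uninfected cells with 4-OHT and 7.29 ± 0.41 with vehicle (SD, n = 3 each). The difference between the 2 kinds of cells in the 4-OHT effect was negative for 26 of 32, with a median of -0.19, and 0 passed or had an unadjusted p under 0.05 (limma).

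Between p53ER and uninfected cells with 4-OHT, 0 of 32 S phase genes passed (0.0275% of all genes, limma), but 31 of 32 were lower, with a median of -0.43, beside a median of +0.03 and 53.9% positive differences over all genes. An unadjusted p under 0.05 was reached by 10 of 32, all lower, beside 1.28% of all genes in that direction. Cdc6 differed by -0.98 (SE 0.27) and Gins2, a part of the replicative helicase, by -0.49 (SE 0.19). In untreated cells 31 of 32 were also lower, with a median of -0.19 beside -0.01, 0 passed (0.0055% of all genes, limma) and 7 had an unadjusted p under 0.05, all lower, beside 2% of all genes in that direction. Rrm2, a subunit of ribonucleotide reductase, was at -0.45 (SE 0.12). Of 15 measured mitotic genes 15 were lower in p53ER cells with 4-OHT than in uninfected cells, with a median of -0.47, 0 passed (limma) and 0 had an unadjusted p under 0.05. In untreated cells 15 of 15 were lower, with a median of -0.37 that was -0.19 without the 3 arrays that lay apart, and 0 passed (limma), while 1 had an unadjusted p under 0.05. Within p53ER cells the mitotic genes had 9 of 15 changes above 0 with 4-OHT against vehicle, with a median of +0.08 (+0.17 without the 3 arrays), 0 passed (limma) and 0 had an unadjusted p under 0.05.

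Upstream of the pocket proteins, Ccne1, the cyclin E gene and an E2F target, had the lowest value of the 8 G1 cyclins and kinases. It averaged 7.57 ± 0.46 in p53ER cells with 4-OHT and 8.14 ± 0.11 with vehicle, against 8.48 ± 0.09 in uninfected cells with 4-OHT and 8.52 ± 0.08 with vehicle (SD, n = 3 each). Its log2 difference was -0.57 (SE 0.22, limma adjusted p = 1.00) against vehicle and -0.91 (SE 0.22, limma adjusted p = 0.488) against uninfected cells with 4-OHT. In the main comparison 0 of 8 passed (limma) and the median was -0.08. An unadjusted p under 0.05 was found for 1 of 8, lower, beside 1.35% of all genes in that direction. Of the 7 measured CDK inhibitors, 0 passed (limma). For 1, Cdkn1a, which was higher, the unadjusted p was under 0.05, beside 2.71% of all probe sets in that direction. The list had a median of -0.23 and 2 positive changes. Without the 3 arrays that lay apart the median turned to +0.12, with 4 positive changes. Cdkn1a averaged 10.4 ± 0.76 in p53ER cells with 4-OHT and 8.20 ± 1.05 with vehicle, against 7.36 ± 0.38 in uninfected cells with 4-OHT and 7.74 ± 0.24 with vehicle (SD, n = 3 each).

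Among the partners of the family in the same comparison, the DP genes Tfdp1 and Tfdp2 differed by -0.18 (SE 0.14) and -0.05 (SE 0.24). Of 7 genes of the MuvB core with B-Myb and FoxM1, which switches on mitotic genes, 0 passed (limma), 0 had an unadjusted p under 0.05 and the median was +0.14, or +0.02 without the 3 arrays. Between p53ER and uninfected cells with 4-OHT, Mybl2, the B-Myb gene and an E2F target, averaged 6.95 ± 0.10 against 7.55 ± 0.42 (SD, n = 3 each), a difference of -0.60 (SE 0.23, limma adjusted p = 1.00). Of 6 genes of the Polycomb complex that holds E2F6, 0 passed in the main comparison (limma). The median was -0.14, or -0.23 without the 3 arrays. An unadjusted p under 0.05 was found for 1 of 6, lower, beside 1.35% of all genes in that direction. This was Max, at -1.37 (SE 0.48, limma adjusted p = 1.00), which averaged 5.96 ± 0.79 with 4-OHT and 7.34 ± 0.97 with vehicle (SD, n = 3 each). Of 3 measured germline genes that E2F6 represses, 0 passed (limma) and 0 had an unadjusted p under 0.05, with a median of -0.10.

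**Figure D3:**
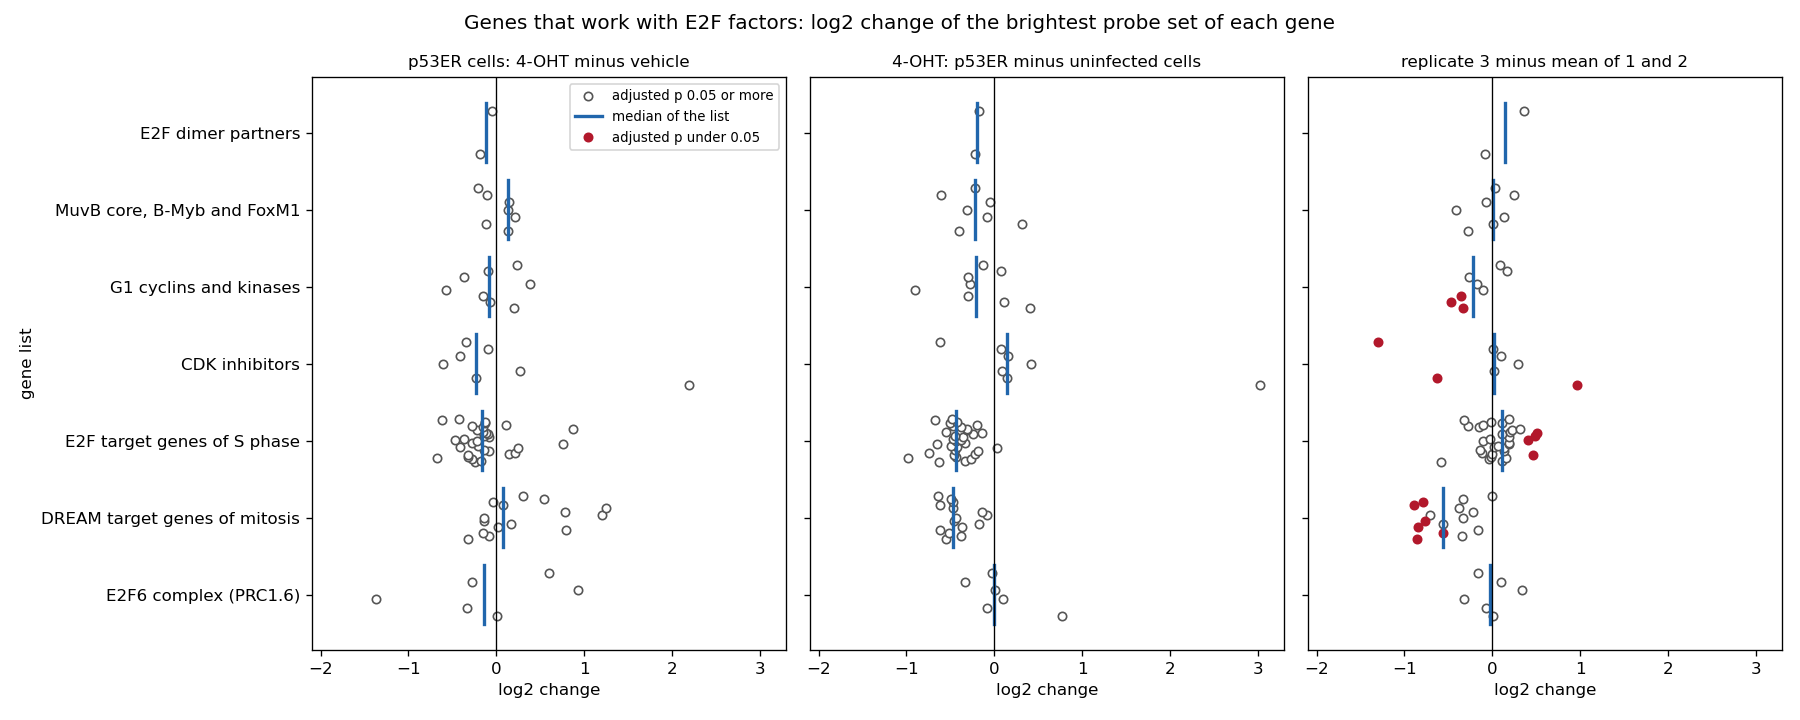
Log2 change (horizontal axis) of the brightest probe set of each gene in 7 lists (vertical axis), for p53ER cells with 4-OHT minus vehicle, p53ER minus uninfected cells with 4-OHT, and replicate 3 minus the mean of replicates 1 and 2; open points did not pass, red points passed, and the blue line is the list median. Mitotic genes lie left of 0 in the middle and right panels, with medians of -0.47 and -0.55, and the point far to the right among CDK inhibitors in the left and middle panels is Cdkn1a.

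Arrays were also compared by replicate number, since the labels number replicates 1 to 3 in every group without saying what a number stands for. Of the 21 probe sets 1 passed in replicate 3 against replicates 1 and 2 over all groups, beside 7.52% of all probe sets and 4.02% in that direction (limma), and 3 had an unadjusted p under 0.05, all lower, beside 18.8% of all and 10.2% in that direction. The one that passed was E2f6 1448835_at. Its replicate 3 arrays had a lowest, median and highest log2 signal of 6.09, 6.43 and 6.54, against 6.70, 7.07 and 7.44 for replicates 1 and 2. All 6 replicate 3 arrays of E2f6 thus lay below all 12 others, as did 1.04% of all probe sets. E2f6 fell by 0.71 on the log2 scale (SE 0.11, limma adjusted p = 0.000325), to 0.609 of the level in replicates 1 and 2 (95% CI 0.518 to 0.717). Within single groups the difference ran from -0.92 in p53ER cells at 0 h to -0.42 in p53ER cells with vehicle. It was -0.63 without the 3 arrays that lay apart (limma adjusted p = 0.00199).

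The second E2f6 probe set, 1437914_at, did not pass, with a difference of -0.09 (95% CI -0.52 to 0.33), or -0.24 without the 3 arrays, and its replicate 3 array was lowest in 3 of 6 groups and highest in 2. For Rbl2 and E2f3 no probe set passed, and the difference between probe sets was not tested. Rbl2 1418146_a_at had replicate 3 arrays with a lowest, median and highest of 4.97, 5.33 and 5.64, against 5.18, 5.75 and 6.02 for replicates 1 and 2, and replicate 3 was lowest in 6 of 6 groups. Its difference was -0.40 (SE 0.15, limma adjusted p = 0.146), and that of the other Rbl2 probe set was -0.02 (95% CI -0.34 to 0.30). E2f3 1427462_at had 3.54, 5.33 and 6.11 in replicate 3, against 5.47, 6.05 and 6.49 in replicates 1 and 2. Its difference was -0.81 (SE 0.25, limma adjusted p = 0.0573), of which the uninfected vehicle array at 3.54 gave much, since without that group it was -0.47 (limma adjusted p = 0.253). The brighter E2f3 probe set differed by +0.03 (95% CI -0.23 to 0.30), or +0.15 without the 3 arrays.

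**Figure D4:**
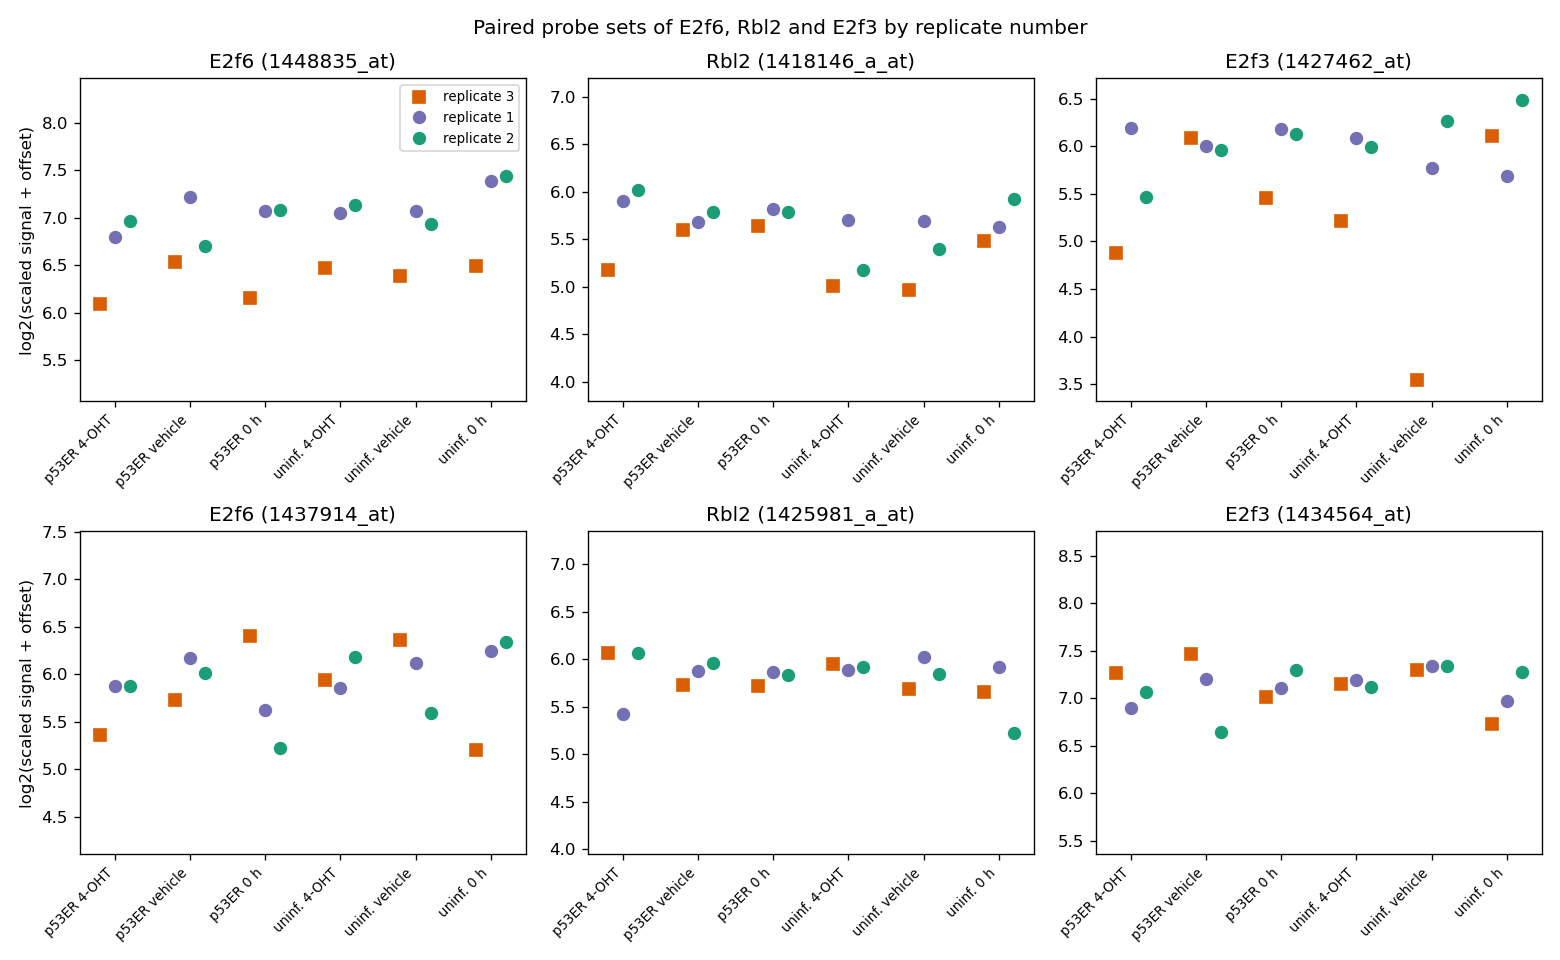
Log2 signal (vertical axis) by replicate number (colour and shape) in the 6 groups (horizontal axis) for both probe sets of E2f6, Rbl2 and E2f3, with 1 point per array. In the upper E2f6 panel the replicate 3 arrays lie between 6.09 and 6.54, below every other array, and in the lower E2f6 panel they are mixed with the others.

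The genes around the family also differed by replicate number, beside 10.4% of all genes past the threshold. Of the mitotic genes 15 of 15 were lower in replicate 3, with a median of -0.55 beside -0.02 over all genes, and 6 of 15 fell past the threshold. Among them were the spindle gene Nusap1 at -0.89, the kinase genes Aurka at -0.86 and Plk1 at -0.79, and the checkpoint gene Bub1b at -0.84 (limma adjusted p = 0.0325, 0.00323, 0.0336 and 0.00199, with Plk1 at 0.0965 without the 3 arrays that lay apart). Of the S phase genes 4 of 32 passed, all higher, beside 5.11% of all genes in that direction. They were the helicase genes Mcm7, Mcm5 and Mcm2 and the licensing gene Cdt1, at +0.41 to +0.51. The list as a whole was mixed, with 19 of 32 differences positive and 13 negative and a median of +0.11. The 3 cyclin D genes fell, Ccnd2 at -0.47, Ccnd3 at -0.35 and Ccnd1 at -0.33, and of the CDK inhibitors Cdkn2d (-1.30) and Cdkn1b (-0.63) fell while Cdkn1a (+0.96) rose, as did Mdm2 (+0.72). Leaving out 1 group took Nusap1, Plk1, Ccnd1, Ccnd3, Mcm5, Mcm2 and Cdt1 to an adjusted p above 0.05 in at least 1 case (limma). Of the DP, MuvB, E2F6 complex and germline lists, 0 genes passed (limma). An unadjusted p under 0.05 was found for 1, 2, 0 and 0 of their genes, beside 18.8% of all probe sets. The medians were +0.14, +0.01, -0.03 and +0.02, or +0.20, -0.01, -0.14 and -0.01 without the 3 arrays. Before scaling, the trimmed mean signal was 47.5 to 73.5 on replicate 3 arrays, against 58.1 to 148 on replicates 1 and 2. Of 8 mesenchymal markers 8 were lower in replicate 3, 4 of them past the threshold, with a median of -0.65. The part of signal level and of these markers in the differences was not tested.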

How the data were processed

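The deposited intensities are linear MAS5 signals, as the tool is named per the submitters' processing notes, with 1 biotin-labelled array per sample; version and scaling target are not given in the sources used here. For each of the 18 arrays the 2% trimmed mean was set to 82.7, and log2 was taken after adding 5% of it (4.13). All 45101 probe sets were fitted with limma (lmFit, eBayes with trend and robust prior) as 6 group means, with 12 residual degrees of freedom. Tests were two-sided, with Benjamini-Hochberg adjustment over all probe sets and a threshold of 0.05. The replicate comparison added the replicate number (10 residual degrees of freedom). Intervals are at 95%. The number of arrays limits the precision.

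Probe sets were named by the array annotation (34958 with 1 gene, 932 with several, 9211 unlisted). Of the first, 34754 had an Entrez ID in the GRCm38.p6 annotation, the 10 family genes among them. Named are all probe sets of the family. From each list at most 4 called genes are named, or, with none called, at most 2 that had the largest test statistic, each gene read by its brightest probe set; Mdm2 and Cdkn1a are always named, to check the fusion. The 9 lists hold the DP partners, the MuvB genes with B-Myb and FoxM1, G1 cyclins and kinases, CDK inhibitors, S phase genes, mitotic genes, the E2F6 complex, germline genes and the check of the fusion, and 81 of their 85 genes were on the array. The family and the lists were chosen with earlier results of these data known.

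The code was tested on simulated data. Alternatives were quantile normalization, no offset, an offset of 20% (16.5), the upper 60% of probe sets, 1 probe set per gene, the replicate number as a block, only the groups compared, a prior without trend and robustness, array weights and leaving out arrays. Leaving out the 3 arrays that lay apart, or every replicate 3, was chosen after the data were seen. In the main comparison, deviations from group means correlated between same-numbered arrays at r of 0.087 to 0.195, and in no comparison above 0.1 in every pair, so the numbers were not taken as pairs. R 4.3.3, limma 3.58.1, the package data.table (1.17.8), Python 3.11.15, pandas 2.3.3 and matplotlib 3.10.9 were used.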

Additional observations from a re-analysis of the deposited data

Results flagged for a closer look

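Outside the family, a probe set of Mdm2, a target of p53, differed between the 2 kinds of cells in its response to 4-OHT when the difference itself was tested. This second Mdm2 probe set rose by 2.95 (SE 0.28) with 4-OHT against vehicle in p53ER cells and differed by +0.03 (SE 0.28) in uninfected cells. The difference of the effects was +2.92 (SE 0.39, limma adjusted p = 0.0158). Once the 3 arrays apart from the rest were left out, it was +2.64 (limma adjusted p = 0.0616). When each of the 12 arrays of the 4 groups was left out in turn, it ran from +2.64 to +3.28 and missed the threshold in 9 of 12 cases (limma adjusted p from 0.000589 to 0.105); it passed only without p53ER 4-OHT replicate 1 or 2 or p53ER vehicle replicate 3. It also missed with only the groups compared (0.123) and with a prior without trend and robustness (0.171). Of the 21 E2F and retinoblastoma family probe sets, 0 passed this test (limma), and 0 had an unadjusted p under 0.05.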

How the results depend on the processing

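In the 8 comparisons of groups, 0 of the 21 probe sets passed under any alternative run, including the replicate number as a block (0 in each), leaving out each array in turn and leaving out the 3 arrays that lay apart. In the comparison of replicate numbers the count of 1 became 2 with the upper 60% of probe sets and 2 with array weights, and it ran from 1 to 2 when each group was left out in turn; the added one was E2f3 1427462_at each time (limma adjusted p = 0.0494 and 0.0250, and 0.0329 and 0.0325 without the p53ER vehicle or the uninfected 0 h group), which otherwise ran from 0.0567 to 0.253. E2f6 1448835_at passed in every alternative run, with values from -0.77 to -0.63 (limma adjusted p = 0.00013 to 0.00351). No direction of a called value turned. Of the single values of family probe sets under alternatives, 3202 moved by less than their standard error in the main fit. These stayed on their side of the threshold, while 106 moved by more and 4 crossed it.

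Over all probe sets the count in the main comparison, 4, ran from 0 with only the groups compared to 11 with the replicate block; the brightest Mdm2 probe set had limma adjusted p = 1.00 with only the groups compared and 0.109 with a prior without trend and robustness, and Cdkn1a passed with the block (limma adjusted p = 0.00256). In the comparison of p53ER with uninfected cells under 4-OHT it was 8, with a range from 5 with no offset to 24 with the block, and among replicate numbers 3392, with a range from 2086 to 4240. The block could not be tried in the comparison of replicate numbers, which already holds the number. For 15 of 18 arrays the closest partner by deviations had the same number.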

Other observations

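The mitotic genes were also read by time in culture, where no gene of the list passed. In uninfected cells 13 of 15 were higher at 4 h than at 0 h, with a median of +0.36 beside -0.11 over all genes, with 0 past the threshold and 0 at an unadjusted p under 0.05 (limma). Bub1 and Nusap1 had the largest test statistics, at +1.06 (SE 0.59) and +0.79 (SE 0.45). Without the 3 arrays that lay apart 14 of 15 were higher, with a median of +0.24. In p53ER cells with vehicle 11 of 15 were lower at 4 h than at 0 h, with a median of -0.11, and again none passed, with 0 at an unadjusted p under 0.05 (limma). Without those 3 arrays 0 of 15 were higher and the median was -0.62. That fit set vehicle replicates 2 and 3 against 0 h replicates 1 and 2. Since 15 of 15 mitotic genes were lower in replicate 3, time and replicate number cannot be told apart there. In uninfected cells the same step set replicates 1 to 3 at 4 h against 0 h replicates 1 and 3.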
